A study of Mus musculus with 6 samples.

Results

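The lysosomal hydrolases and membrane proteins described here are 36 genes, of the 20673 genes in the expression tables, that were named in a list of lysosomal genes and found by an exact match of their symbol. They were grouped by role into 10 proteases, 11 glycosidases, 4 sulfatases, 3 lipid hydrolases, 3 activators or cofactors of hydrolases and 5 membrane proteins. Liver RNA was sequenced from C57BL/6J mice given either a regular diet (RD, 3 livers) or a high-cholesterol diet for 3 days (HCD, 3 livers). The HCD also contained sodium cholate, a bile salt, and more fat than the RD, so that cholesterol, cholate and fat cannot be told apart in this comparison. The mice of the study were around 12 weeks old and of both sexes, and the sex of each liver was not given in the labels.

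Lysosomes are acidic compartments in which hydrolases break down proteins, sugar chains, sulfated glycans and lipids that arrive by endocytosis and autophagy. Cholesteryl esters taken up with lipoproteins are also cleaved there, and the freed cholesterol leaves through the lysosomal membrane. In the liver these enzymes are made by hepatocytes, and macrophages such as Kupffer cells are known for an abundant supply of them. Many lysosomal genes carry an E-box in their promoter to which the transcription factor TFEB and its relatives bind.

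The libraries held 13771630 to 23129576 counts on genes. Between any pair of livers of a diet the counts gave a chi-square 30.3 to 157.1 times its degrees of freedom, far above counting noise. Xist, the RNA made from the inactive X chromosome, reached 5032 counts in HCD replicate 1, against 0 in every other liver. In HCD replicate 1 the Y-linked genes Ddx3y, Eif2s3y, Kdm5d and Uty had 0 counts, against 65 to 1229 in the others. A count of 0 allows up to 3 counts, or 0.13 to 0.243 CPM depending on the library, where CPM are counts brought to a common library total with edgeR's TMM factors. The main count and the median over the 36 genes, the X-linked genes and the marker lists are therefore also given without HCD replicate 1. Nothing in the labels states whether the 3 livers of a diet came from separate cages or batches, and p-values measure the spread between these livers only.

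The promoter sequences below show where the letters of the TFEB-bound element lie in some of the genes. RefSeq promoters of GRCm38.p6, from 250 bases before to 50 after the start of transcription, were given for 33 of the 36 genes, and those of Ctsb, Ctsh and Asah1 were not analysed here. Searched were the full palindrome of the CLEAR element, its inner part TCACGTGA and the E-box CACGTG. Each reads the same on both strands, and each shorter one lies within the longer. CACGTG was present in 12 of the 33 genes (36.4%), against 8.09% of all 27025 genes with a promoter and 7.15% of all 32851 promoters. The 12 genes were Ctsa, Ctsd, Ctsl and Lgmn among the proteases, Gla, Glb1, Gaa and Naglu among the glycosidases, Arsa and Sgsh among the sulfatases, and Lamp1 and Mcoln1 among the membrane proteins. TCACGTGA was present in 4 of 33 (12.1%), against 1.12% of all genes, and the full palindrome in 0 of 33, against 0.370% of all genes. In the related lists described further below, CACGTG was present in 14.3% to 33.3% of the genes with a promoter. There TCACGTGA was present in 0.00% to 22.2% and the full palindrome in 0.00% to 11.1%, so the elements are not particular to the 36 genes. The sites with TCACGTGA are shown for all 4 genes that held one. Those of Lamp1, the gene with the highest level and the most E-boxes, and of Lgmn, the gene with the smallest p-value between diets, follow. Capitals mark the element, in the direction of the gene.
Ctsa, 12 bases before the start, chr2:164833751-164833776, plus strand: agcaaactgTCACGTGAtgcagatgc
Ctsa, 6 bases after the start, chr2:164833768-164833793, plus strand: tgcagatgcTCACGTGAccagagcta
Ctsd, 98 bases before the start, chr7:142387910-142387935, minus strand: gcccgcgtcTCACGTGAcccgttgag
Gla, 227 bases before the start, chrX:134601217-134601242, minus strand: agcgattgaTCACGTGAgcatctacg
Gla, 194 bases before the start, chrX:134601184-134601209, minus strand: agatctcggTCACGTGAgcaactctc
Mcoln1, 45 bases before the start, chr8:3500464-3500489, plus strand: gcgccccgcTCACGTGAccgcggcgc
Lamp1, 61 bases before the start, chr8:13159090-13159115, plus strand: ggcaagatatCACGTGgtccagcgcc
Lamp1, 45 bases before the start, chr8:13159106-13159131, plus strand: gtccagcgccCACGTGatgccgactg
Lamp1, 28 bases before the start, chr8:13159123-13159148, plus strand: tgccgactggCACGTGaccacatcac
Lamp1, 15 bases before the start, chr8:13159136-13159161, plus strand: gtgaccacatCACGTGcggaacggag
Lgmn, 49 bases before the start, chr12:102439126-102439151, minus strand: gaatgtctgtCACGTGgtccatttta
Distances run from the start of transcription to the first base of CACGTG. A match describes the letters only and is no measure of binding, and a promoter without a match lacks these letters in this window only.

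Levels between genes were compared as FPKM, fragments scaled by gene length and by the library total. Every one of the 36 genes was detected in every liver, with a lowest count of 53, and mean FPKM over the 6 livers ran from 0.511 for Galc to 367 for Lamp1. The membrane protein Lamp1, a heavily glycosylated lining of the lysosomal membrane, had the highest FPKM of the list in each liver. Over 100 FPKM lay 6 genes, namely Lamp1 (367), Psap (267), Ctsz (251), Ctsb (175), Ctsd (121) and Ctsl (118), and 7 lay under 5 FPKM, namely Galc, Gla, Idua, Arsb, Ids, Sgsh and Cd63. The abundant end of the list was thus made of proteases, the saposin precursor and a structural membrane protein, and the scarce end of glycosidases, sulfatases and a tetraspanin.

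**Figure D1:**
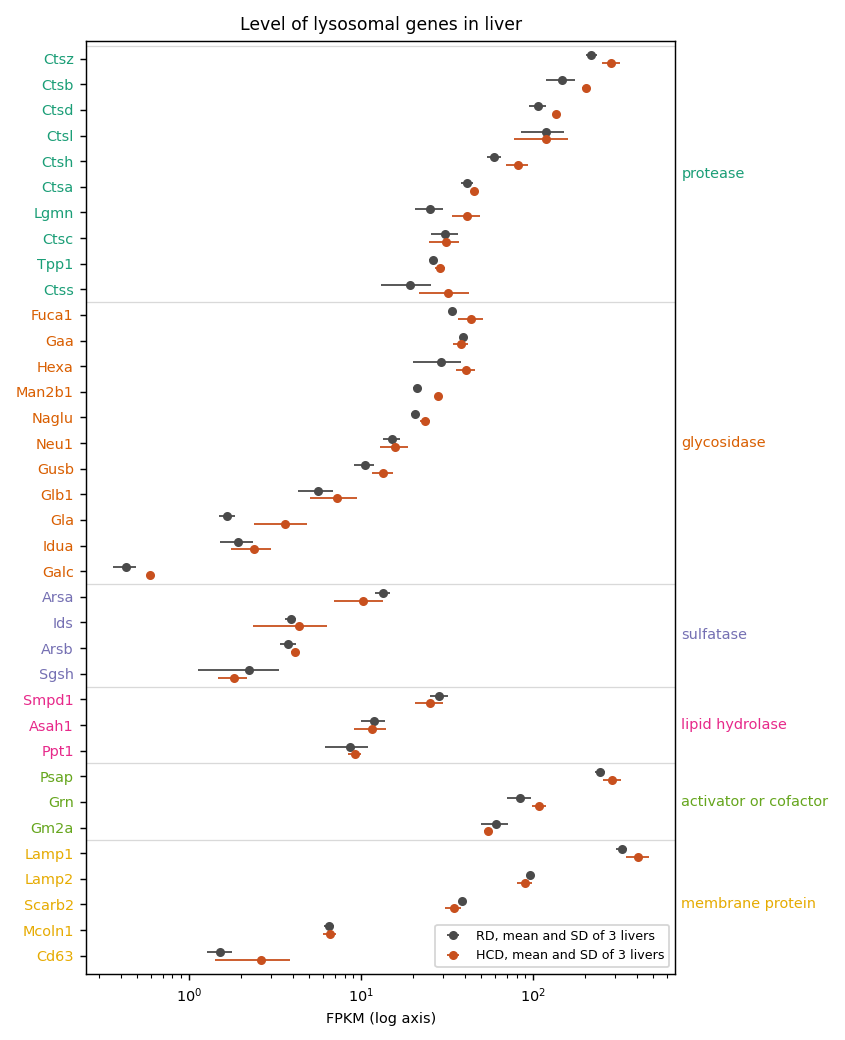
Level of the 36 lysosomal genes in RD and HCD livers, in FPKM on a log axis, grouped by role. Points are means and bars the SD of 3 livers, and mean levels over the 6 livers run from 0.511 FPKM (Galc) to 367 FPKM (Lamp1). The figure is for comparison between genes, as FPKM between livers can be shifted by the library total used.

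Within a liver, the top 5 genes held 54.5% to 58.8% of the FPKM summed over the 36 genes. Proteases made up 40.6% to 42.5% of this sum with RD and 42.1% to 47.4% with HCD, and glycosidases 9.15% to 9.56% and 9.12% to 9.99%. Membrane proteins made up 24.0% to 25.3% with RD and 19.9% to 27.3% with HCD, and activators or cofactors 20.2% to 20.8% and 18.2% to 20.9%. The shares of these 4 roles overlapped between the diets. Sulfatases held 1.09% to 1.37% of the sum with RD and 0.810% to 1.01% with HCD, and lipid hydrolases held 2.41% to 2.68% and 1.80% to 2.19%. For both of these scarce roles the share was lower in every HCD liver than in any RD liver, and a share also moves with the level of the other roles. In CPM the diets overlapped for each of the 4 sulfatases and each of the 3 lipid hydrolases.

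The comparison of HCD with RD asked whether short-term HCD feeding was accompanied by a change in the RNA of the degradative enzymes and membrane proteins of the lysosome. None of the 36 genes passed the test, though most proteases and glycosidases had a positive log2 fold change while the medians of sulfatases, lipid hydrolases and membrane proteins lay below 0. Each of these 3 medians turned positive in at least 1 fit, to 0.0038 for sulfatases without RD replicate 2, to 0.024 for lipid hydrolases without HCD replicate 3 and to as much as 0.11 for membrane proteins with a trend of gene length removed. The log2 fold change, HCD over RD, exceeded 0 for 25 of the 36 (8 of 10 proteases, 10 of 11 glycosidases, 2 of 4 sulfatases, 1 of 3 lipid hydrolases, 2 of 3 activators or cofactors and 2 of 5 membrane proteins), against 50.7% of all genes tested. The median log2 fold change was 0.34 for proteases, 0.34 for glycosidases, 0.21 for activators or cofactors, -0.0049 for membrane proteins, -0.077 for lipid hydrolases and -0.11 for sulfatases. Over the 36 genes it was 0.19, against 0.0074 over all 13105 genes tested. These medians are a description, and whether one role differed from another was not tested.

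At an adjusted p under 0.05 in edgeR (quasi-likelihood F test, Benjamini-Hochberg over the 13105 genes tested), 0 of the 36 genes were called, against 3.27% of all genes tested, of which 1.95% were higher and 1.32% lower with HCD. At an unadjusted p under 0.05, 9 of the 36 were higher with HCD, against 11.1% of all genes tested, and 0 were lower, against 9.81%. The 9 were the proteases Lgmn, Ctsh, Ctsb, Ctsz, Ctss and Ctsd and the glycosidases Gla, Man2b1 and Fuca1. DESeq2's Wald test called 2 of the 36, Lgmn and Gla, against 7.20% of all genes it tested, and limma-trend on log2 FPKM called 0. The count of 9 was 2 without RD replicate 1, 3 without RD replicate 2 and 2 when library sizes were used without scaling factors. Without HCD replicate 1 it was 8, and the median over the 36 genes was 0.21. In 12 of the 36 genes every HCD liver was above every RD liver, against 14.0% of all genes tested, and in 0 of the 36 every HCD liver was below, against 13.7%. These 12 were 6 proteases, 5 glycosidases and 1 cofactor, and an exact two-sided permutation test of 3 livers against 3 gave each p = 0.1, the smallest p it allows.

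**Figure D2:**
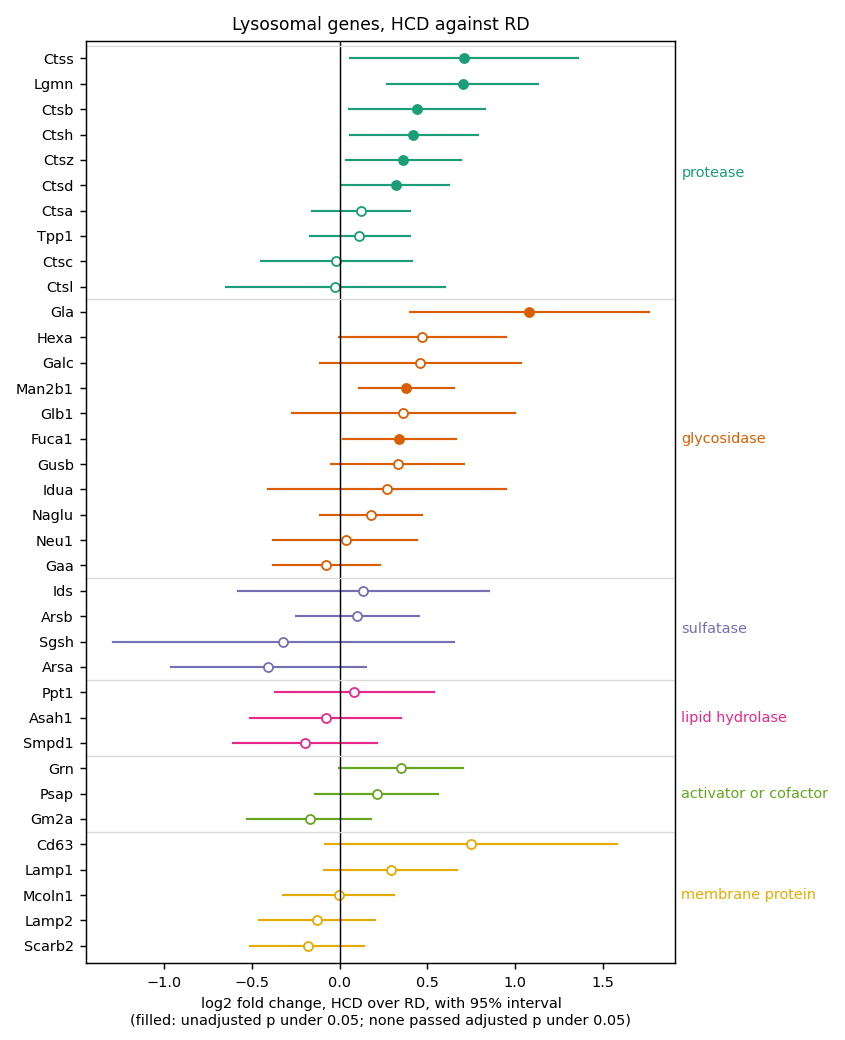
Log2 fold change of HCD over RD for the 36 lysosomal genes by role, with the 95% interval from edgeR. Filled points had an unadjusted p under 0.05, and these 9 are 6 proteases and 3 glycosidases, all to the right of 0.

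Among the proteases, Lgmn (ENSMUSG00000021190, chr12:102394084-102439813 of GRCm38, minus strand), the asparaginyl endopeptidase legumain that also matures cathepsins, had the smallest p-value of the 36 genes. Its level was 32.1, 41.9 and 45.3 CPM in RD replicates 1, 2 and 3 and 72.5, 70.6 and 50.9 CPM in HCD replicates 1, 2 and 3. The lowest HCD liver was thus just above the highest RD liver. Mean Lgmn was 39.8 ± 6.87 CPM (SD, n = 3) with RD and 64.7 ± 12 CPM with HCD, and the log2 fold change was 0.70 (standard error 0.19, 95% interval 0.27 to 1.13) with an adjusted p = 0.0849 in edgeR. DESeq2 gave Lgmn an adjusted p = 0.0217, the lowest over all alternatives, of which the highest was 0.287. With single livers left out its log2 fold change was 0.56 to 0.84.

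The other 5 proteases at an unadjusted p under 0.05 were cathepsins. Ctsb (ENSMUSG00000021939, chr14:63122462-63145923), a cysteine protease, stood at 518, 588 and 722 CPM in the RD livers and 863, 817 and 798 CPM in the HCD livers. The mean of Ctsb was 609 ± 104 CPM (SD, n = 3) with RD and 826 ± 33.4 CPM with HCD, and the log2 fold change was 0.44 (standard error 0.17, adjusted p = 0.189 in edgeR). The diets did not overlap for Ctsb, and its spread was wider with RD. Ctsh (ENSMUSG00000032359, chr9:90054152-90076089), a cysteine aminopeptidase, had 167, 205 and 179 CPM with RD and 278, 253 and 208 CPM with HCD. The mean of Ctsh went from 183 ± 19.4 to 246 ± 35.9 CPM (SD, n = 3), and the log2 fold change was 0.42 (standard error 0.16, adjusted p = 0.182 in edgeR). HCD replicate 3 lay only just above the highest RD liver for this gene.

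Ctsz (ENSMUSG00000016256, chr2:174427493-174439039, minus strand), a cysteine carboxypeptidase and by FPKM the most abundant protease of the list, had 232, 203 and 209 CPM with RD and 309, 265 and 253 CPM with HCD. Its log2 fold change was 0.36 (standard error 0.14, adjusted p = 0.197 in edgeR), between means of 215 ± 15.4 and 276 ± 29.2 CPM (SD, n = 3). Ctsd (ENSMUSG00000007891, chr7:142375911-142388038, minus strand), the main aspartic protease of lysosomes, had 164, 162 and 190.4 CPM with RD and 207, 219.7 and 217 CPM with HCD. The HCD livers were close to each other and all above the RD livers, with means of 172 ± 15.7 and 214 ± 6.70 CPM (SD, n = 3). The log2 fold change of Ctsd was 0.32 (standard error 0.13, adjusted p = 0.217 in edgeR).

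Ctss (ENSMUSG00000038642, chr3:95526786-95556403), a cysteine protease of antigen-presenting cells, was the one of the 9 whose diets overlapped. Its RD livers had 14.3, 15.3 and 24.0 CPM and its HCD livers 37.2, 31.3 and 19.0 CPM, so that HCD replicate 3 was below RD replicate 3. The means were 17.9 ± 5.35 and 29.2 ± 9.30 CPM (SD, n = 3), and the log2 fold change was 0.71 (standard error 0.28, adjusted p = 0.202 in edgeR), or 0.49 without HCD replicate 1.

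The remaining 4 proteases had log2 fold changes near 0. Ctsa, a serine carboxypeptidase that also stabilizes Glb1 and Neu1, had 141, 123 and 135 CPM with RD and 144, 146 and 144 CPM with HCD. The diets did not overlap for Ctsa, but its log2 fold change was only 0.12 (adjusted p = 0.611 in edgeR). Tpp1, a tripeptidyl peptidase, was at 0.11 and Ctsc, a dipeptidyl peptidase that activates granule proteases, at -0.022. Ctsl, a cysteine endopeptidase, had 493, 407 and 668 CPM with RD and 677, 344 and 521 CPM with HCD. Its livers ranged widely within both diets, with a coefficient of variation of 25.4% and 32.4%, and its log2 fold change was -0.024 (standard error 0.27). The signs of Ctsc and Ctsl turned under several alternatives and carry no direction.

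**Figure D3:**
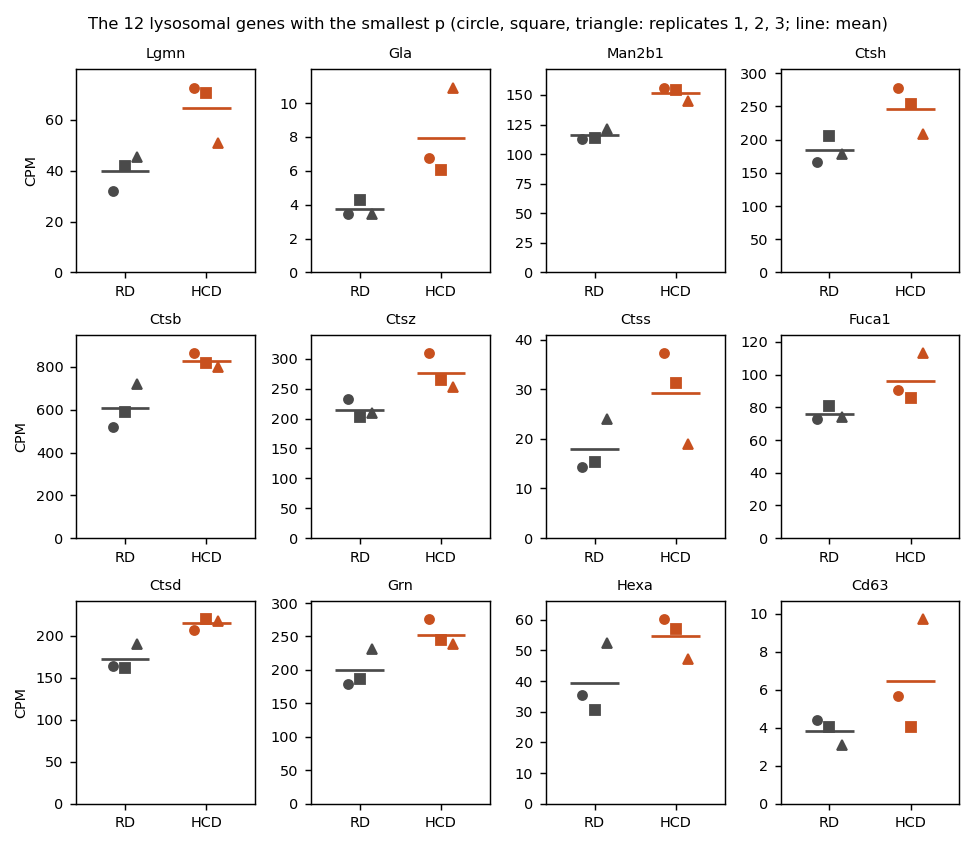
CPM of the 12 lysosomal genes with the smallest p-value, in each liver. Circles, squares and triangles are replicates 1, 2 and 3 of a diet and lines are means, and the diets do not overlap for Lgmn, Gla, Man2b1, Ctsh, Ctsb, Ctsz, Fuca1, Ctsd and Grn while they overlap for Ctss, Hexa and Cd63.

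Among the glycosidases, Gla (ENSMUSG00000031266, chrX:134588149-134601125, minus strand) had the highest log2 fold change of the 36 genes. It encodes alpha-galactosidase A, which removes terminal galactose from glycolipids. Its RD livers had 3.46, 4.26 and 3.47 CPM and its HCD livers 6.77, 6.07 and 10.9 CPM. HCD replicate 3 was the highest, and the diets did not overlap. Mean Gla was 3.73 ± 0.455 CPM (SD, n = 3) with RD and 7.90 ± 2.59 CPM with HCD, and the log2 fold change was 1.08 (standard error 0.30, 95% interval 0.40 to 1.76) with an adjusted p = 0.0943 in edgeR. The adjusted p was 0.0410 in DESeq2 and reached 0.291 over all alternatives, and the log2 fold change was 0.78 to 1.23 with each liver left out. These values rest on 61 to 134 counts in a liver. Gla is X-linked, and without HCD replicate 1, the liver with Xist, its log2 fold change was 1.18.

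Man2b1 (ENSMUSG00000005142, chr8:85083270-85098282), the lysosomal alpha-mannosidase that trims N-glycans, was among the least variable genes. It had 113, 114 and 121 CPM with RD and 156, 154 and 145 CPM with HCD. The means were 116 ± 4.13 and 151 ± 5.76 CPM (SD, n = 3), and the log2 fold change was 0.38 (standard error 0.12, adjusted p = 0.120 in edgeR). The HCD livers were all above the RD livers, by more than the spread within either diet. Fuca1 (ENSMUSG00000028673, chr4:135920735-135940311), the alpha-L-fucosidase and by mean FPKM over the 6 livers the most abundant glycosidase, though Gaa was above it with RD, had 73.0, 81.1 and 74.0 CPM with RD and 90.4, 85.8 and 113 CPM with HCD. Its log2 fold change was 0.34 (standard error 0.14, adjusted p = 0.215 in edgeR), from 76.0 ± 4.44 to 96.3 ± 14.3 CPM (SD, n = 3).

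Hexa (ENSMUSG00000025232, chr9:59539540-59565109), the alpha subunit of beta-hexosaminidase, had 35.6, 30.6 and 52.3 CPM with RD and 60.2, 57.0 and 47.2 CPM with HCD. RD replicate 3 exceeded HCD replicate 3, and the log2 fold change was 0.47 (standard error 0.21, adjusted p = 0.245 in edgeR) between means of 39.5 ± 11.4 and 54.8 ± 6.79 CPM (SD, n = 3). The diets did not overlap for Galc, which cleaves galactosylceramide, nor for Naglu, which acts on heparan sulfate. Their log2 fold changes were 0.46 and 0.18. Glb1 (beta-galactosidase) was at 0.36, Gusb (beta-glucuronidase) at 0.33, Idua (alpha-iduronidase) at 0.27, Neu1 (sialidase) at 0.034 and Gaa (acid alpha-glucosidase, which degrades glycogen) at -0.076. The adjusted p of these 7 was 0.301 or higher in edgeR, and the sign of Neu1 turned to -0.019 with library sizes alone.

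The sulfatases had a median log2 fold change of -0.11, and the diets overlapped for all 4. Arsa (ENSMUSG00000022620, chr15:89472476-89477425, minus strand), which removes sulfate from sulfatide, had the lowest log2 fold change of the 36 genes. It had 30.2, 37.4 and 33.3 CPM with RD and 15.9, 30.5 and 29.8 CPM with HCD, and its log2 fold change was -0.41 (standard error 0.24, adjusted p = 0.377 in edgeR). HCD replicate 1 was by far the lowest liver, and without it the log2 fold change of Arsa was -0.16. Sgsh, which acts on heparan sulfate, had 8.56, 9.07 and 2.82 CPM with RD and 6.32, 5.65 and 4.30 CPM with HCD. RD replicate 3 was the lowest of the 6 livers for Sgsh, whose log2 fold change was -0.32 (standard error 0.43). The X-linked Ids, which removes sulfate from heparan and dermatan sulfate, was at 0.13, and at -0.22 without HCD replicate 1. Arsb, which acts on dermatan sulfate, was at 0.10.

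For the lipid hydrolases of the list no gene approached the threshold. Smpd1 (ENSMUSG00000037049, chr7:105554360-105558389), the acid sphingomyelinase, was the most abundant of them and had 62.3, 75.1 and 57.6 CPM with RD and 44.0, 66.0 and 59.8 CPM with HCD. Its means were 65.0 ± 9.04 and 56.6 ± 11.3 CPM (SD, n = 3), and the log2 fold change was -0.20 (standard error 0.18, adjusted p = 0.561 in edgeR). The livers of both diets were interspersed. Asah1, the acid ceramidase, was at -0.077 and Ppt1, a thioesterase that removes palmitate from proteins, at 0.082. The lipase gene Lipa is not in this list but among the other hydrolases below. Its log2 fold change was 0.30 (standard error 0.14, adjusted p = 0.255 in edgeR).

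Psap (ENSMUSG00000004207, chr10:60277627-60302597), the precursor of the saposins that present glycolipids to their hydrolases, had 458, 441 and 485 CPM with RD and 581, 561 and 458 CPM with HCD. HCD replicate 3 lay within the RD range and the other HCD livers above it, and the log2 fold change was 0.21 (standard error 0.15, adjusted p = 0.471 in edgeR). Grn (ENSMUSG00000034708, chr11:102430315-102437048), progranulin, had 179, 187 and 232 CPM with RD and 276, 244 and 238 CPM with HCD. The diets were separate for Grn, with means of 199 ± 28.7 and 253 ± 20.4 CPM (SD, n = 3), a log2 fold change of 0.35 (standard error 0.15) and an adjusted p = 0.245 in edgeR. Gm2a, the activator that lifts ganglioside for Hexa, was at -0.17.

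The membrane proteins did not share a sign. Lamp1 (ENSMUSG00000031447, chr8:13159161-13175338), with the 4 E-boxes printed above, had 567, 598 and 633 CPM with RD and 610, 759 and 834 CPM with HCD. HCD replicate 1 lay within the RD range and the other HCD livers above it, and the log2 fold change was 0.29 (standard error 0.17, adjusted p = 0.356 in edgeR). Lamp2, which takes part in chaperone-mediated autophagy and is X-linked, had 631, 617 and 642 CPM with RD and 553, 539 and 635 CPM with HCD. Its log2 fold change was -0.13 (standard error 0.14), -0.10 without HCD replicate 1 and 0.0077 after removal of a trend with gene length. The median of the 5 membrane proteins moved from -0.0049 to 0.11 in that fit.

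Cd63 (ENSMUSG00000025351, chr10:128900989-128912822), a tetraspanin of late endosomes and lysosomes, had 4.42, 4.05 and 3.08 CPM with RD and 5.66, 4.07 and 9.73 CPM with HCD. HCD replicate 3 carried most of the difference, and the log2 fold change was 0.75 (standard error 0.36, adjusted p = 0.284 in edgeR). Scarb2, which carries glucocerebrosidase to the lysosome, was at -0.18. Mcoln1, a calcium channel of the lysosomal membrane with TCACGTGA in its promoter, had 36.6, 32.7 and 31.7 CPM with RD and 30.0, 37.1 and 33.6 CPM with HCD, and its log2 fold change of -0.0049 had no stable sign.

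The median log2 fold change was 0.15 for the 12 genes with CACGTG (range -0.41 to 1.08) and 0.21 for the 21 without (range -0.20 to 0.75), and for the 4 with TCACGTGA it was 0.22. Every HCD liver was above every RD liver for 5 of the 12, 5 of the 21 and 3 of the 4, and 3, 4 and 2 were higher at an unadjusted p under 0.05, against 14.0% and 11.1% of all genes tested. These counts and medians do not point one way, and the difference was not tested. The gene with the highest log2 fold change, Gla, and the one with the lowest, Arsa, both had an E-box.

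Differences of moderate size could have gone undetected. The 95% interval of the log2 fold change had a median half-width of 0.38, from 0.27 to 0.97, and it held 0 for 27 of the 36 genes. For 29 of the 36 it lay entirely within -1 to 1, so that a change of more than that size in either direction lay outside the interval. For 30 of the 36 genes every liver had over 100 counts, and for those with fewer, Gla and Galc among them, counting error is a larger part of the spread.

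Kupffer cells, the resident macrophages of the liver, hold many lysosomes, and their markers were read beside the lysosomal genes. All 14 markers on the list had a positive log2 fold change, with a median of 0.84, 0 of 14 were called in edgeR, 6 were higher at an unadjusted p under 0.05 and 4 in DESeq2, and none was at 0. Of all genes tested, 3.27% were called in edgeR, 11.1% were higher at an unadjusted p under 0.05 and 7.20% were called in DESeq2. Without HCD replicate 1 the log2 fold change was positive for 13 of the 14, with a median of 0.62. Their summed level was 191, 230 and 320 CPM in the RD livers and 560, 489 and 265 CPM in the HCD livers. HCD replicates 1 and 2 were above all RD livers, and HCD replicate 3 was below RD replicate 3. Clec4f, a receptor specific to Kupffer cells, was also highest in HCD replicates 1 and 2 and lower in HCD replicate 3 than in RD replicate 3, with 43.1, 54.0 and 67.2 CPM with RD and 120.3, 115 and 54.0 CPM with HCD. The same held for Ctss.

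HCD replicate 3 was the lowest HCD liver for 6 of the 9 genes at an unadjusted p under 0.05, against 1 for HCD replicate 1 and 2 for HCD replicate 2. Over all 36 genes it was lowest for 16, against 13 and 7. Of the 6, all but Ctss were above all RD livers in HCD replicate 3, and so were the Kupffer cell markers C1qb, Clec1b and Marco, while the Kupffer cell sum of that liver was within the RD range. The summed markers of other leukocytes were 8.89 to 15.9 CPM with RD and 12.8 to 24.2 CPM with HCD, those of endothelial cells 149 to 259 and 194 to 300 CPM, those of stellate cells 366 to 426 and 394 to 656 CPM, and those of cholangiocytes 37.4 to 91.9 and 64.6 to 98.1 CPM. The sums overlapped between the diets for each of these 4 cell types, and 6 of 6, 8 of 10, 10 of 10 and 4 of 5 of their markers tested had a positive log2 fold change. Without HCD replicate 1 these tallies were 3 of 6, 5 of 10, 9 of 10 and 5 of 5. Hepatocyte markers summed to 94218 to 128708 CPM with RD and 100763 to 142910 CPM with HCD, while 3 of the 10 had a positive log2 fold change and their median was -0.24, or 3 of 10 and -0.11 without HCD replicate 1. In bulk tissue, more or fewer cells of a type cannot be told apart from more or less RNA per cell, and the part of these cell types in the lysosomal values was not tested.

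**Figure D4:**
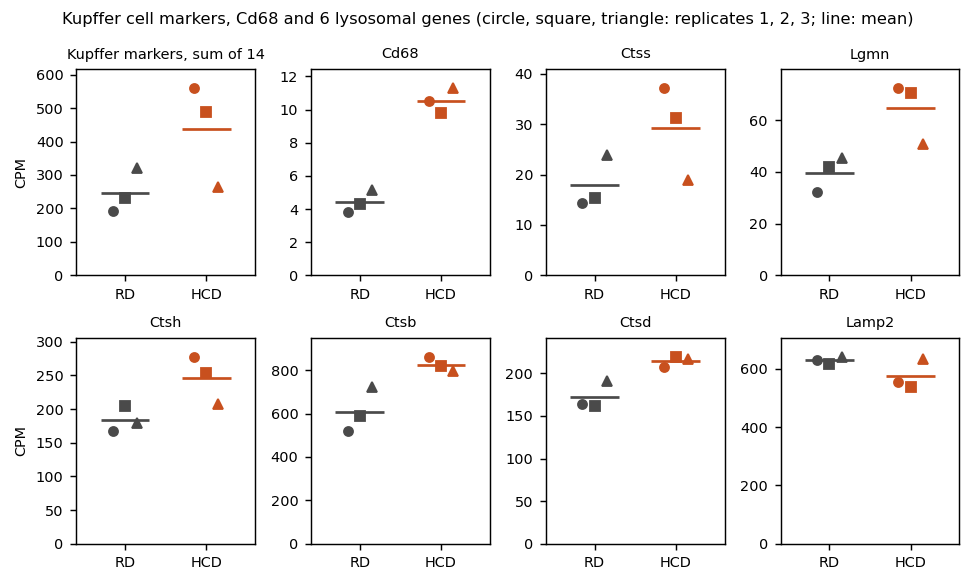
CPM in each liver of the summed Kupffer cell markers, of the macrophage lysosomal protein Cd68, and of 6 of the lysosomal genes. Symbols are replicates and lines are means of 3 livers. HCD replicate 3 (triangle) is below RD replicate 3 for the Kupffer sum, Ctss and Lamp2. It is above all RD livers for Cd68, Lgmn, Ctsh, Ctsb and Ctsd.

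Some genes of the list share exon bases with a neighbour, and the strand setting of the counting was not stated. Ctsb shared 12.8% of its exon bases with Fdft1 on the opposite strand, which encodes squalene synthase of the cholesterol pathway. Fdft1 fell, with 162, 114 and 149 CPM with RD and 88.7, 57.1 and 65.9 CPM with HCD (log2 fold change -1.0, standard error 0.20, adjusted p = 0.0380 in edgeR), the direction opposite to that of Ctsb. Its adjusted p was 7.6e-05 to 0.157 over the alternatives. Ctsd shared 34.4% of its exon bases with Gm49369 on the same strand, Arsb 39.9%, Ctsl 26.8%, Sgsh 21.6%, Arsa 18.8%, Ctsa 17.4% and Hexa 12.8%, and how many of their reads are shared was not measured. The neighbours of Hexa (Tmem202), Arsa (C230037L18Rik) and Sgsh (Card14) had at most 9, 9 and 6 counts in a liver. Cd63 has a pseudogene copy, Cd63-ps, that is 98.4% identical over 849 bases, so that the low Cd63 counts are uncertain as well. No exon was shared for Lgmn, Gla, Man2b1, Ctsh, Ctss or Psap.

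Around the 36 genes stand further lists of the same pathway, in which 6 of 165 genes tested were called (3.64%), near the 3.27% of all genes tested. The lists held 29 other hydrolases tested, 32 other membrane proteins, 18 subunits of the V-ATPase that acidifies the lysosome, 24 genes of enzyme sorting, 20 of the TFEB family and the lysosomal mTORC1 complex, and 42 autophagy genes. Their median log2 fold changes were 0.19, 0.11, 0.07, -0.067, 0.096 and -0.10 in this order. Among other hydrolases, V-ATPase subunits and sorting genes 0 were called in edgeR, while 7, 3 and 1 were higher and 1, 1 and 3 lower at an unadjusted p under 0.05, against 11.1% and 9.81% of all genes tested. DESeq2 called 2 of these hydrolases, 1 subunit and 0 sorting genes as higher, and 1, 0 and 2 as lower, against 7.20% of all genes it tested in either direction. Over the 6 lists DESeq2 called 19 genes (11.5% of the 165).

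Of the 32 other membrane proteins only Cd68 was called, and it rose, while at an unadjusted p under 0.05 there were 6 higher and 1 lower, and DESeq2 called 1 in each direction. This glycoprotein of macrophage lysosomes had 3.85, 4.33 and 5.12 CPM with RD and 10.5, 9.79 and 11.3 CPM with HCD, and its log2 fold change was 1.24 (standard error 0.22, adjusted p = 0.0277 in edgeR). All HCD livers were above all RD livers, HCD replicate 3 included. In the list of the TFEB family and the mTORC1 complex 2 genes rose and 1 fell of 20, at an unadjusted p under 0.05 there were 7 higher and 3 lower, and DESeq2 called 4 as higher and 2 as lower. Beside both lists stand 3.27% of all genes tested that were called in edgeR and 7.20% in DESeq2, while at an unadjusted p under 0.05 the shares were 11.1% higher and 9.81% lower. Fnip2, a folliculin-binding protein, rose from 12.2, 13.7 and 15.5 to 26.0, 26.1 and 24.6 CPM (log2 fold change 0.89, standard error 0.15, adjusted p = 0.0246 in edgeR). Lamtor4, a subunit of the Ragulator scaffold that anchors mTORC1 to lysosomes, rose from 28.6, 28.1 and 30.9 to 45.4, 45.4 and 44.7 CPM (log2 fold change 0.63, standard error 0.12, adjusted p = 0.0341 in edgeR). Zkscan3, a zinc finger protein known as a repressor of autophagy and lysosome genes, fell from 51.5, 59.0 and 42.2 to 21, 24.4 and 29.6 CPM (log2 fold change -1.03, standard error 0.18, adjusted p = 0.0277 in edgeR).

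Among the autophagy genes Ulk1 and Nbr1 fell, and 10 of 42 were lower and 3 higher at an unadjusted p under 0.05, against 9.81% and 11.1% of all genes tested. Called lower in edgeR were 1.32% of all genes tested. DESeq2 called 5 of the 42 as lower and 0 as higher, against 7.20% of all genes it tested in either direction. Ulk1, the kinase that starts autophagosome formation, went from 83.5, 82.5 and 86.5 to 53.7, 48.3 and 56.7 CPM (log2 fold change -0.67, standard error 0.12, adjusted p = 0.0277 in edgeR). Nbr1, a cargo receptor, went from 202, 213 and 196 to 142, 132 and 115 CPM (log2 fold change -0.65, standard error 0.14, adjusted p = 0.0432 in edgeR). For these 6 genes the livers of the diets were separate, yet their adjusted p was above 0.05 without RD replicate 1 (0.123 to 0.172), without RD replicate 2 (0.119 to 0.193) and without HCD replicate 3 (0.0524 to 0.108). Without RD replicate 3, HCD replicate 1 or HCD replicate 2, the calls in these lists numbered 3, 4 and 3. With a trend of gene length removed 1 call was left, and with the replicate number as a block 0.

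Of the TFEB family, Tfeb, Tfe3, Mitf and Tfec did not pass the test, and other proteins that bind an E-box were not examined. Tfeb had 8.70, 8.30 and 9.94 CPM with RD and 10.9, 11.7 and 20.3 CPM with HCD, and its log2 fold change was 0.66 (standard error 0.26, adjusted p = 0.196 in edgeR). HCD replicate 3 was far above the other livers, and without it the log2 fold change was 0.32. Tfe3 had 34.9, 40.0 and 31.0 CPM with RD and 23.6, 27.2 and 14.1 CPM with HCD, and the log2 fold change was -0.70 (standard error 0.24, adjusted p = 0.141 in edgeR). The HCD livers of Tfe3 were all below its RD livers, opposite in sign to Tfeb. Tfe3 is X-linked, and without HCD replicate 1 its log2 fold change was -0.77. Mitf was at -0.90 (adjusted p = 0.286 in edgeR), with 1.22 to 4.41 CPM in HCD livers and 4.81 to 6.30 CPM in RD livers. Tfec was at 0.57 (adjusted p = 0.561 in edgeR), with 12 to 31 counts in a liver. Mtor, the kinase that holds TFEB in the cytoplasm, had 45.2, 50.1 and 44.0 CPM with RD and 31.1, 35.7 and 27.2 CPM with HCD. Its log2 fold change was -0.57 (standard error 0.15) with an adjusted p = 0.0759 in edgeR, and over the alternatives its adjusted p was 0.0415, in DESeq2, to 0.268.

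**Figure D5:**
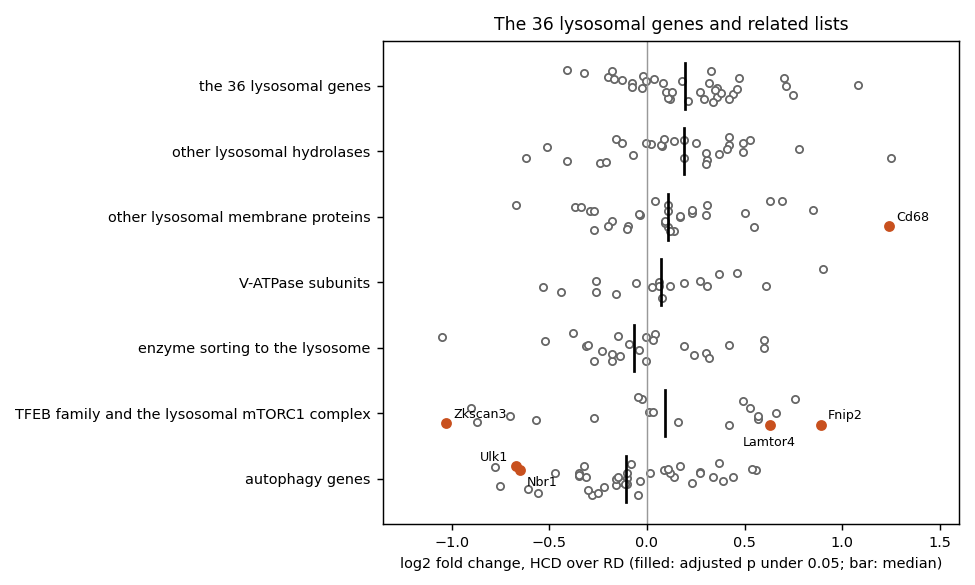
Log2 fold change of HCD over RD for the 36 lysosomal genes and the genes tested in 6 related lists. Each point is a gene, bars are medians, vertical position within a list is arbitrary, and filled points passed an adjusted p under 0.05 in edgeR: Cd68, Fnip2 and Lamtor4 to the right and Zkscan3, Ulk1 and Nbr1 to the left.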

How the data were processed

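Liver RNA was isolated with the RNeasy Kit and sequenced by Novogene, 1 library per liver. The authors deposited raw counts per gene and FPKM values, and their own columns of log2 fold changes, p-values and adjusted p were not used. The submitters' processing notes name STAR, HTSeq, DESeq2, edgeR and GRCm39, with no role given. The ratio of deposited counts to FPKM matched exon lengths of GENCODE M21 (GRCm38), within 0.1%, for 94.8% to 95.0% of genes with at least 50 counts, so positions are those of M21. The total in the FPKM was 0.59 to 0.73 of the count total and is not explained in the sources used here. FPKM between livers can be shifted by this, and levels were therefore compared between livers in CPM and between genes in FPKM.

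Counts were tested with edgeR 4.0.16 in R 4.3.3 (TMM factors 0.886 to 1.07, filterByExpr by diet, quasi-likelihood F test of diet without covariates), on 13105 of 20673 genes. All 36 genes of the list passed the filter. Benjamini-Hochberg adjustment covered all genes tested, and calls were made at an adjusted p under 0.05, whatever the size of the log2 fold change. The script was tested on simulated data. Alternatives were DESeq2 1.42.0, RLE factors, library sizes alone, no filter, a filter at a mean of 50 counts, limma-trend 3.58.1 on log2 of FPKM plus 1 or 0.1, a length trend removed by loess offsets (span 0.5, degree 1, prior count 2), the replicate number as a block, and each liver left out. Shared exons were read from M21, and copies were found with minimap2 2.31. Tables and figures were made with Python 3.11.15.

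The 36 genes, the related lists and the cell type markers were chosen with earlier results of these data known. Values in every liver were given for called genes of the list, filled up to 12 by the smallest p, for the most abundant gene of each role, and for some others chosen after their values were seen. From each related list up to 3 called genes in each direction were named, with Tfeb, Tfe3, Mitf and Mtor in any case. Tfec and Lipa were added after their values were seen.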

Additional observations from a re-analysis of the deposited data

How the results depend on the processing

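No gene of the 36 was called in the edgeR and limma fits, and DESeq2 called 2. At an unadjusted p under 0.05, 9 were higher with HCD, 2 with library sizes alone and 2 to 9 with single livers left out, and 0 were lower, or 0 to 1 with single livers left out (Sgsh without RD replicate 3). The median over the 36 genes was 0.13 to 0.21 in every fit. Of 540 values of single genes under the 15 alternatives, 515 kept their direction and side of the threshold, 2 passed it and 23 changed sign, in 8 genes. Ctsc was at 0.00048 and 0.00044 in limma-trend (FPKM plus 1 and 0.1), at 0.06 with the length trend removed and at -0.18 to 0.12 with single livers left out. Ctsl was at 0.07 with the length trend removed and -0.27 to 0.19 with livers left out, Neu1 at -0.019 with library sizes alone and -0.069 to 0.18, and Lamp2 at 0.0077 with the length trend removed. Mcoln1 was at 0.011 with a mean of at least 50 counts, 0.014 and 0.016 in limma-trend, 0.11 with the length trend removed and -0.089 to 0.07 with livers left out. With livers left out, Ids was at -0.22 to 0.42, Ppt1 at -0.054 to 0.31 and Asah1 at -0.25 to 0.038. In the related lists 6 genes were called, 19 by DESeq2 (11.5%, against 7.20% of all genes), 1 with the length trend removed and 0 to 4 with single livers left out. With a mean of at least 50 counts, 1 V-ATPase subunit was called. The list of the TFEB family and the mTORC1 complex had 4 calls in that fit, with no filter and in limma-trend, against 3 in the main fit. The cause of these shifts was not tested.

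With the replicate number as a block, 0 of the 36 genes and 0 genes of the related lists were called, 7 of the 36 were higher at an unadjusted p under 0.05, and 136 genes were called in all, against 428 without the block. Same-numbered livers of the diets correlated at -0.076, 0.088 and -0.041 in their deviations, and differently numbered livers at -0.107 to 0.133. Deviations were taken within each diet of 3 livers, so these values cannot show whether same-numbered livers shared a cage or batch. Over all genes the fits called 36 genes (without RD replicate 1) to 995 (DESeq2), with 51 without RD replicate 2, 103 without HCD replicate 3, 146 without RD replicate 3 and 251 with the length trend removed.

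The spread between 3 livers a diet limits these results, and for genes with low counts, such as Gla and Galc, depth does too.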
